A study of Mus musculus with 2 samples.

Results

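Leukemia inhibitory factor (LIF) is the cytokine that keeps mouse embryonic stem cells (mESCs) self-renewing in culture. This report follows 8 genes of its signalling chain in mESCs that lack Dicer, namely Lif, Lifr, Il6st, Stat3, Socs3, Pim1, Pim3 and Gbx2. They were taken by name from the count tables, where each symbol had 1 Ensembl gene, and they are 8 of 43629 listed genes. All 8 had a mean of at least 10 counts over the libraries, the minimum set here for comparing libraries.

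LIF binds its receptor chain LIFR, which pairs with the shared chain gp130, encoded by Il6st. Janus kinases on the receptor then phosphorylate STAT3, which enters the nucleus and switches on targets such as Socs3, Pim1, Pim3 and Gbx2. SOCS3 acts back on the receptor as a brake, the PIM proteins are serine/threonine kinases that favour growth and survival, and GBX2 is a homeobox transcription factor that helps to hold mESCs undifferentiated.

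The 2 libraries hold polyA RNA of Dicer_KO mESCs of the 129/Ola strain, which the labels trace to the blastocyst. Replicate 1 came from passage 7 and replicate 2 from passage 4, both carrying a deletion in Dicer1. The cells derive from the E14TG2a line, and the study's methods state that mESCs were routinely kept in medium with serum and LIF, so that Lif counts are the cells' own mRNA and not the added cytokine. Paired Cas9 cuts made a pair of different Dicer1 deletions, and cells were sorted singly after transfection, but the labels do not say which deletion a library carries. WT libraries are not analysed here. The deletion, the passage and the library therefore cannot be told apart in any difference below, and with 1 library for each passage no difference was tested. Dicer1, the targeted gene, had 1343 counts in replicate 1 and 1510 in replicate 2, and without WT these do not check the labels. The study reported a loss of Dicer mRNA in both mutants from its RNA sequencing, which cannot be examined here without WT.

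The libraries held 41710122 and 41566184 counts on genes. Levels are given as TPM, counts divided by exon length and scaled to the same total in each library. All 10 listed markers of mESCs were within 2-fold between the libraries and abundant, from Dppa3 at 29.5 and 35.1 TPM in replicates 1 and 2 to Nanog at 1485 and 855 TPM and Pou5f1 at 1218 and 1400 TPM. Of 8 markers of feeder fibroblasts, cells that can themselves make LIF, Col3a1, Lum and Postn had at most 1 count in either library. The 8 summed to 23.2 and 16.9 TPM, most of it Thy1 (19.3 and 15.2 TPM), and Pdgfrb had 285 and 91 counts, Col1a1 had 20 and 18, Col1a2 had 6 and 1, and Dcn had 0 and 19. Markers of trophectoderm, the outer layer of the blastocyst, differed between the libraries. Their 8 genes summed to 396 TPM in replicate 1 and 53.5 TPM in replicate 2, with Krt18 at 349 and 44.8 TPM, while Cdx2, a factor that defines this lineage, had 6 counts and 1 count. Krt18 and Krt7 lie on chromosome 15, whose ratios are described below. Of the 7 trophectoderm markers that reached the count minimum, 6 were more than 2-fold higher in replicate 1, beside 14.2% of all genes that reached it. In bulk RNA, more cells of a type and more RNA per cell cannot be told apart. The part of these markers in the differences below was not tested. The 7 primitive endoderm markers summed to 12.3 and 7.09 TPM, most of it Gata4 (10.5 and 5.96 TPM). Of the 5 that reached the count minimum, 3 were within 2-fold, Gata4 and Pdgfra (83 and 87 counts) among them. The other 2, Gata6 (16 and 5 counts) and Dab2 (52 and 17 counts, on chromosome 15), were sparse and more than 2-fold higher in replicate 1. Neuroectoderm markers summed to 21.9 and 24.1 TPM, most of it Nes (19.3 and 21.1 TPM).

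Dicer makes mature miRNAs, and the 3′ untranslated regions of the 8 genes were searched for short matches to miRNA seeds. The study probed miR-295 and miR-16 by northern blot, so their mature sequences from RefSeq (GRCm38.p6) are shown, with the seed, bases 2 to 8, in capitals.
mmu-miR-295-3p: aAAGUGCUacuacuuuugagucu
mmu-miR-16-5p: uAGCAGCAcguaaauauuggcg
The 7 letters complementary to the miR-295-3p seed, AGCACTT, stood once in Lif and once in Il6st and in none of the other 6 genes, on the coding transcript with the longest coding region in GENCODE M21. Over all genes, 12.5% of 21601 such regions held these letters. The letters for miR-16-5p, TGCTGCT, stood in Lif, Lifr, Il6st, Pim1 and Pim3 and in 17.5% of all regions. Stat3, Socs3 and Gbx2 had neither. The regions of Lifr (6320 bases) and Il6st (5641 bases) are the longest of the 8 and that of Gbx2 (664 bases) is the shortest, and a longer region holds more matches by its length alone. All 10 matches, in the ligand, both receptor chains and both kinases, are shown, plus strand, GRCm38, with the match in capitals.
Lif, chr11:4271476-4271498, miR-295-3p: actctctaAGCACTTtacctgga
Lif, chr11:4272297-4272319, miR-16-5p: ctttgcacTGCTGCTctccctct
Lifr, chr15:7192170-7192192, miR-16-5p: gctttcccTGCTGCTcatgagtc
Lifr, chr15:7193364-7193386, miR-16-5p: gtttagagTGCTGCTcaccccac
Il6st, chr13:112505282-112505304, miR-295-3p: gttgaggaAGCACTTtatccaga
Il6st, chr13:112508943-112508965, miR-16-5p: actgcaagTGCTGCTacgtaagc
Il6st, chr13:112509685-112509707, miR-16-5p: agtgcctgTGCTGCTgtatgtcc
Pim1, chr17:29494749-29494771, miR-16-5p: agcctttcTGCTGCTgtctgtca
Pim1, chr17:29495211-29495233, miR-16-5p: ctcttaccTGCTGCTtctcaaac
Pim3, chr15:88865019-88865041, miR-16-5p: cccgacccTGCTGCTccatctca
Such a match is a description of the sequence, and no miRNA was measured in these libraries.

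Per exon length, Pim3 was the highest of the 8 in both libraries, at 250 TPM in replicate 1 and 117 TPM in replicate 2. Il6st followed by the mean of the libraries, at 102 ± 7.57 TPM (SD, n = 2, here and for the other means, a spread that may be partly technical), then Pim1 at 87.8 ± 40.3 TPM and Socs3 at 87.8 ± 45.8 TPM. Stat3 had 35.5 ± 7.82 TPM and Lifr 34.4 ± 0.165 TPM. Lif was lower, at 11.1 ± 0.780 TPM, and Gbx2 was the lowest in both libraries, at 1.93 and 9.41 TPM. The ranges of the 2 libraries overlapped between Il6st and Pim1, between Pim1 and Socs3 and between Stat3 and Lifr, so that these neighbours in the order are not set apart. With the length of the longest transcript in place of all exons, Stat3 came to 45.5 TPM and Lifr to 31.2 TPM, and the order of the 8 means stayed as given except that Pim1 (89.0 TPM) and Socs3 (80.8 TPM) moved apart. Among the 17788 genes that reached the count minimum, Pim3 stood at percentile 95.5 by mean TPM, Il6st at 90.7, Lifr at 71.6, Lif at 46.8 and Gbx2 at 35.4.

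**Figure D1:**
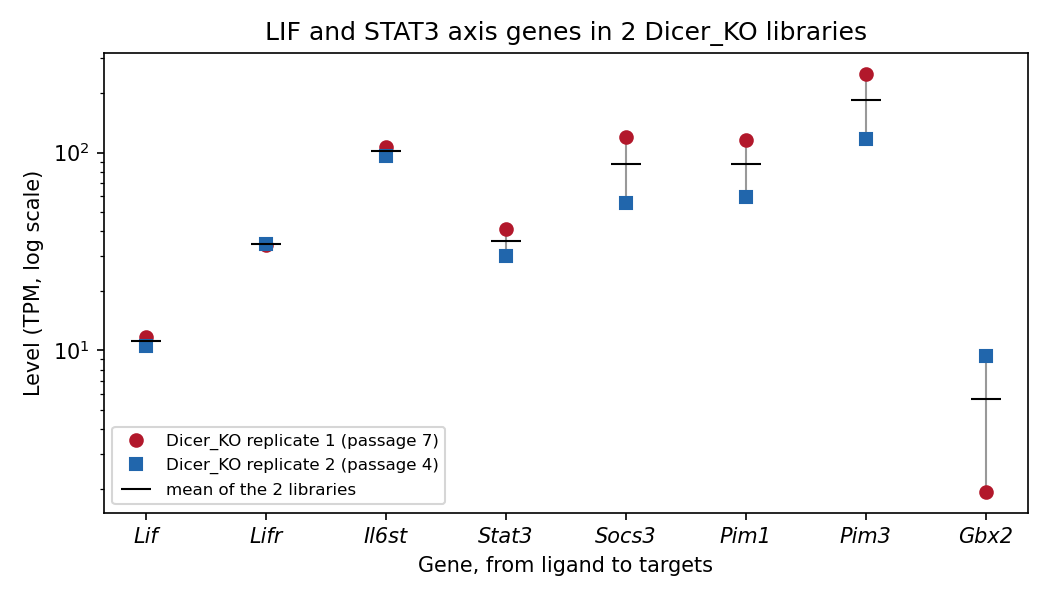
Level of each gene in TPM on a log axis, with replicate 1 as circles, replicate 2 as squares and the mean of the 2 libraries as a bar. The values of Lif, Lifr and Il6st nearly coincide, those of Socs3, Pim1 and Pim3 are higher in replicate 1, and Gbx2 is lower there, at 1.93 TPM against 9.41 TPM.

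The ligand and the receptor chains had near-equal levels in the libraries. Differences between libraries are log2 ratios of replicate 1 over replicate 2 of counts scaled by the TMM method, and their 95% exact binomial intervals cover counting error only. Lif (ENSMUSG00000034394, chromosome 11, 4257557 to 4272514) had 723 counts in replicate 1 and 627 in replicate 2, a log2 ratio of 0.08 (-0.07 to 0.24). The interval spans 0, so no difference was detectable for the ligand at this depth and with this scaling. Scaled by total counts the log2 ratio of Lif was 0.20, for which no interval is given here.

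Lifr (ENSMUSG00000054263, chromosome 15, 7090614 to 7197489, 19 exons in its longest transcript) had 5271 and 5084 counts and a log2 ratio of -0.07 (-0.13 to -0.01). Its sign turned to 0.05 when libraries were scaled by total counts, so its direction depends on the scaling. Il6st (ENSMUSG00000021756, chromosome 13, 112464070 to 112510086) had 16941 and 14605 counts and a log2 ratio of 0.09 (0.06 to 0.12). Of the receptor pair, Il6st was the more abundant per length, 3.12 times the TPM of Lifr in replicate 1 and 2.79 times in replicate 2.

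Stat3, the transducer, had a slightly higher level in replicate 1. The gene (ENSMUSG00000004040, minus strand of chromosome 11, 100885098 to 100939540) had 5582 counts in replicate 1 and 3906 in replicate 2, a log2 ratio of 0.39 (0.33 to 0.45), or 1.31-fold. Of all genes compared, 30.2% had a ratio at least as high. Its 3′ end shares 72 bases with Stat5a on the other strand, 0.756% of its exon length.

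Socs3, Pim1 and Pim3 were each about 2-fold higher in replicate 1. Socs3 (ENSMUSG00000053113, minus strand of chromosome 11, 117966079 to 117970047) had 4958 and 2188 counts, a log2 ratio of 1.06 (0.99 to 1.13), or 2.08-fold. Pim3 (ENSMUSG00000035828, chromosome 15, 88862186 to 88865726) had 8649 and 3896 counts, a log2 ratio of 1.03 (0.97 to 1.08), or 2.04-fold. Pim1 (ENSMUSG00000024014, chromosome 17, 29490753 to 29496112) had 5583 and 2728 counts, a log2 ratio of 0.91 (0.84 to 0.98), or 1.88-fold. The brake and both kinases thus lay close to the 2-fold line on either side of it, and the intervals of Socs3 and Pim3 include it. With scaling by total counts Pim1 passed the line as well, at 1.03. Annotated exons of Gm26885, an antisense gene with 10 and 9 counts, cover 14.5% of the exon bases of Pim1.

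Gbx2 went the other way. The gene (ENSMUSG00000034486, minus strand of chromosome 1, 89927956 to 89931179, 2 exons) had 60 counts in replicate 1 (95% exact Poisson interval 45.8 to 77.2) and 280 in replicate 2 (248 to 315). These intervals do not overlap, and Gbx2 was 5.01-fold higher in replicate 2, a log2 ratio of -2.32 (-2.77 to -1.94). Of all genes compared, 0.995% had a ratio at least as low. On the other strand, D130058E05Rik, with 22 and 32 counts, shares 43.5% of the exon bases of Gbx2. Reads on overlapping regions were left out of the deposited counts, and whether the counting used strand is not given in the sources used here, so reads of Gbx2 may be missing from its count.

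Of the 8 genes, 2 were more than 2-fold higher in replicate 1 and 1 was more than 2-fold lower. Over the 17788 genes compared, 14.2% were more than 2-fold higher in replicate 1 and 7.12% more than 2-fold lower, 21.4% in all, so that a 2-fold difference was common between these libraries. The median log2 ratio of the 8 genes was 0.24, against 0.02 over all genes compared. Ratios spread less among abundant genes. Of the 7401 genes that averaged 1000 counts or more, a minimum chosen after the values were seen, 4% were more than 2-fold higher in replicate 1 and 2.78% more than 2-fold lower. In that group 3.49% of genes had a ratio at or above that of Socs3, 3.74% one at or above that of Pim3 and 4.78% one at or above that of Pim1.

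**Figure D2:**
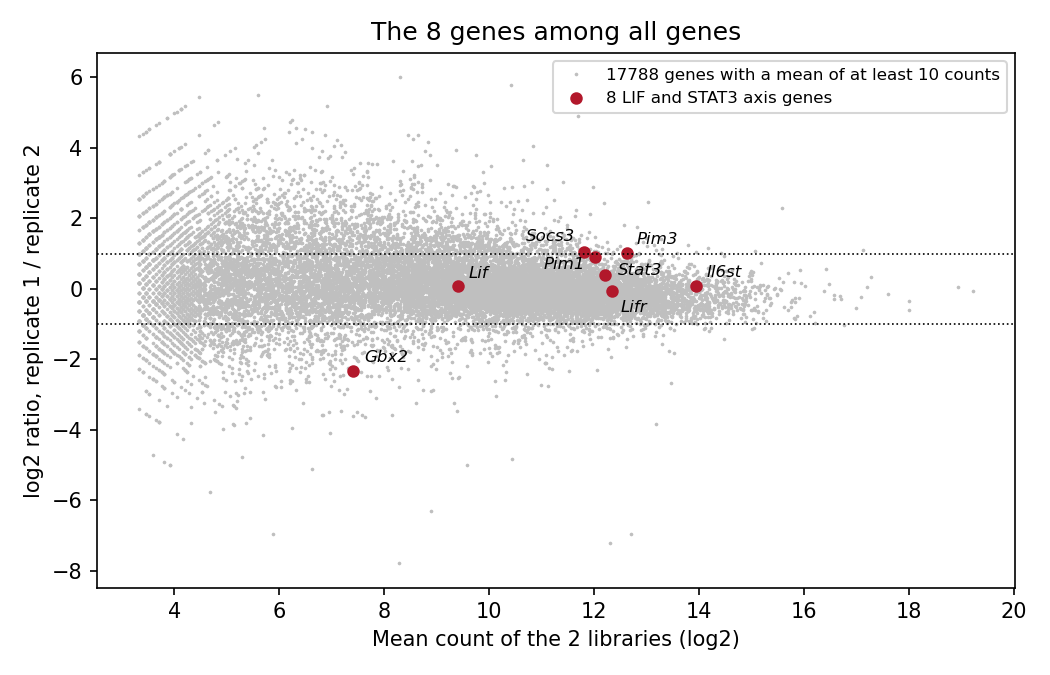
Log2 ratio of replicate 1 over replicate 2 against the mean count (log2) for 17788 genes in grey and the 8 genes in red, with dotted lines at 2-fold. Socs3, Pim1 and Pim3 lie near the upper line at a mean count where few genes reach it, and Gbx2, at -2.32, lies below the lower line.

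**Figure D3:**
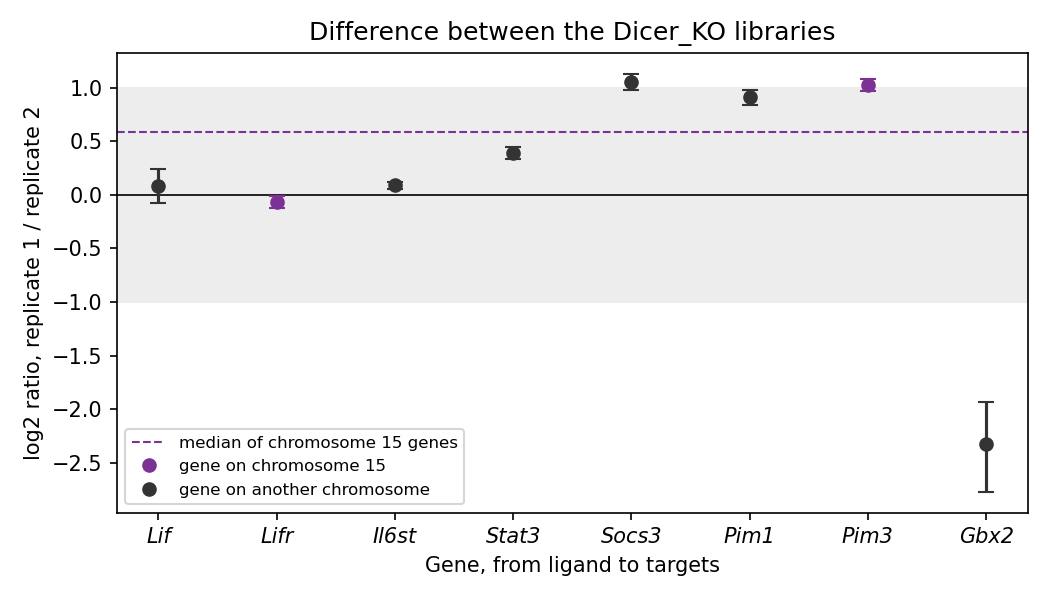
Log2 ratio of replicate 1 over replicate 2 for each gene with its 95% counting interval as the bar. The grey band marks ratios within 2-fold and the dashed line the median of chromosome 15 genes, 0.59. The 2 genes of that chromosome lie on opposite sides of the line, Lifr at -0.07 and Pim3 at 1.03.

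Lifr and Pim3 both lie on chromosome 15, whose 683 compared genes had a median log2 ratio of 0.59, against -0.08 to 0.08 for each other autosome. The log2 ratio of Lifr minus that median was -0.66, and 87.0% of the other genes of the chromosome had a higher ratio. Within 5 Mb of Lifr the median of 45 other genes was 0.26, which leaves a difference of -0.33. Pim3 was 0.44 above the median of the chromosome and 0.39 above that of the 79 other genes within 5 Mb, which was 0.64. Of those 79 genes, 69.6% had a ratio at or below that of Pim3. Over the 10 nearest compared genes, 5 on each side, the median was -0.15 for Lifr, with 2 of them more than 2-fold higher, and 0.95 for Pim3. The median around Pim3 was thus shifted in the same direction as Pim3, though not every gene there was. Neither Lifr nor the median of its nearest genes shared the shift of the chromosome. Within 5 Mb the median was 0.21 over 198 genes for Socs3 and 0.10 over 248 genes for Pim1, while the 10 nearest compared genes, 5 on each side, had medians of 0.49 and 0.38.

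**Figure D4:**
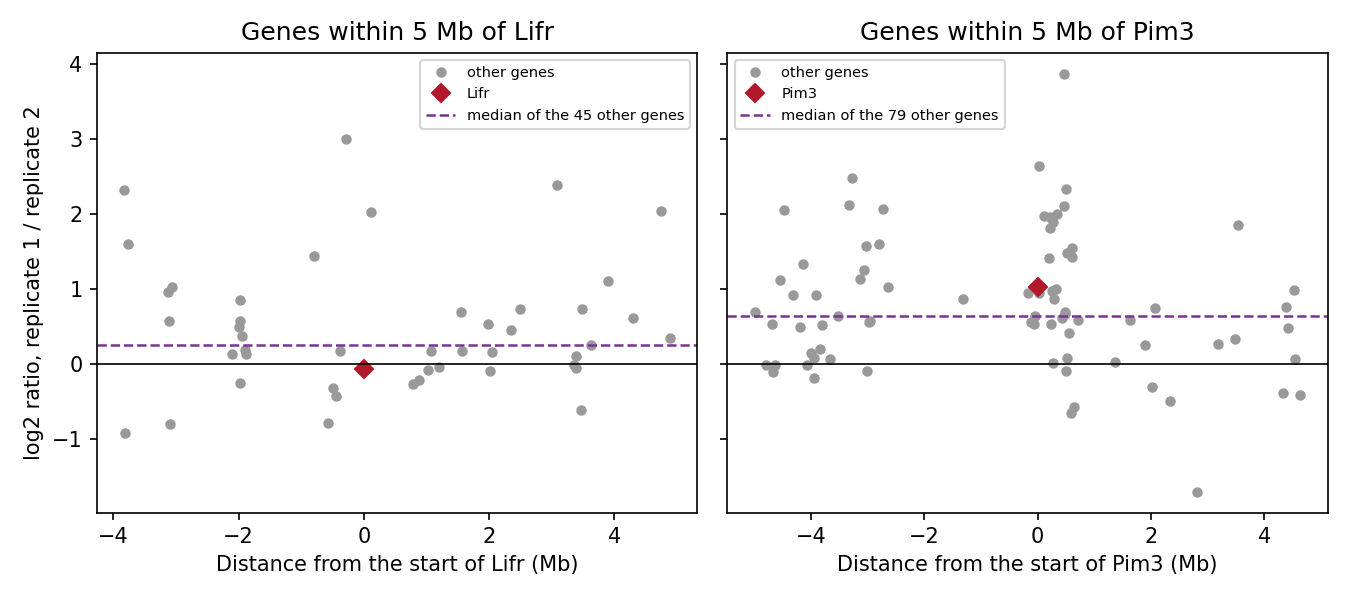
Log2 ratio of replicate 1 over replicate 2 for genes within 5 Mb of Lifr (left) and of Pim3 (right), against the distance from the start of that gene in Mb. Grey points are other genes averaging 10 counts or more, the dashed line is their median (0.26 on the left, 0.64 on the right), and the diamond is the named gene.

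The paralogs of the target genes both had more counts in replicate 2. Pim2, the third PIM kinase, had 465 counts in replicate 1 and 1140 in replicate 2, a log2 ratio of -1.41, the reverse of Pim1 and Pim3. Per length, Pim3 was 21.4 times as abundant as Pim2 in replicate 1 and 3.94 times in replicate 2. Gbx1 had 37 and 53 counts and a log2 ratio of -0.63 (-1.29 to -0.008), in the direction of Gbx2 but within 2-fold. Its interval nearly reaches 0, so the direction of Gbx1 is uncertain.

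The promoter windows of the 8 genes were searched for the core of the STAT binding element, TTCNNNGAA, which reads the same on both strands. RefSeq windows from 250 bases before to 50 bases after the start site were found for all 8, with 10 windows in total. The window of Socs3 held 1 match and the other 9 windows none, while 8.3% of 32851 windows of all genes held at least 1. The Socs3 window is shown because it carries that match (chr11:117969317-117969616, minus strand, GRCm38.p6) with the match in capitals. The match begins 154 bases before the start site.
Socs3 promoter window: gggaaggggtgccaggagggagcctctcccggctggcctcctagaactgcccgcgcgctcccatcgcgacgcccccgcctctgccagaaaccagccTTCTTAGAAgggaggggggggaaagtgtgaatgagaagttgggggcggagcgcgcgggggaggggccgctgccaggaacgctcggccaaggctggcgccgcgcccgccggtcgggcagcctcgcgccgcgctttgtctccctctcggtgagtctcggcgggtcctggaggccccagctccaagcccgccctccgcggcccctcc
The stricter form TTCCNGGAA, which is contained in the first, had no match in the 10 windows and stood in 1.15% of all windows. A window without a match says only that these letters are not in it, and STAT3 binding was not measured.

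The rest of the pathway was described with 55 further genes in 7 lists by role, of which 51 reached the count minimum. Of these 51, 10 were more than 2-fold higher in replicate 1 and 4 more than 2-fold lower, beside 14.2% and 7.12% of all genes compared. Their median log2 ratio was 0.22. These 14 were ligands, receptor chains, STATs, targets and 1 adaptor. No Janus kinase and none of the 14 inhibitors other than Socs3 passed 2-fold. Each Janus kinase and most of these inhibitors averaged 1000 counts or more. Of all genes that abundant, 4% were more than 2-fold higher in replicate 1 and 2.78% lower, so the absence of such genes does not set these roles apart.

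Among ligands that signal through gp130, Osm was the most abundant. Osm encodes oncostatin M and had 41.0 and 29.0 TPM in replicates 1 and 2, or 3.52 and 2.75 times the TPM of Lif. Cardiotrophin 1 (Ctf1) had 7.34 and 4.37 TPM. Of 5 ligand genes that reached the minimum, Ctf2 (82 and 32 counts, log2 ratio 1.21) and Clcf1 (29 and 10 counts, 1.33) were higher in replicate 1. Il6 had 1 count in replicate 1 and 0 in replicate 2.

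The cytokine-specific receptor chains other than Lifr were all sparse. Cntfr, the ciliary neurotrophic factor receptor, had 112 and 275 counts and a log2 ratio of -1.41. Il27ra (273 and 104 counts, log2 ratio 1.26) and Il11ra1 (303 and 101 counts, 1.45) were higher in replicate 1, but Il11ra1 has near-identical copies in the mouse genome, so its counts are uncertain. Osmr, the oncostatin M receptor chain, had 42 counts in replicate 1 and 4 in replicate 2. Lifr, the chain for LIF, exceeded it 141 times in TPM in replicate 1 and 1429 times in replicate 2.

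Jak1, the main kinase bound to gp130, was the most abundant Janus kinase and nearly equal in both libraries, at 54.0 and 54.8 TPM. Jak2, Jak3 and Tyk2 were higher in replicate 1 within 2-fold, with log2 ratios from 0.30 to 0.70. Among the other STATs, Stat5a (535 and 215 counts, log2 ratio 1.19) and Stat5b (817 and 232 counts, 1.69) were higher in replicate 1, Stat2 had a log2 ratio of 0.90, and Stat4 went the other way within 2-fold, with 397 and 618 counts and one of -0.76. Stat6 was the most abundant of these, at 59.9 and 54.2 TPM.

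LIF also signals through adaptors to the ERK and PI3K branches. Gab1, a docking protein of these branches, had 8491 and 15720 counts and a log2 ratio of -1.01, just past 2-fold, and was within 2-fold when scaled by total counts. Grb2 (118 and 116 TPM), Shc1, Sos1, Ptpn11 and Pik3r1 all had log2 ratios between -0.13 and 0.06. The 5 other adaptors were thus near equal in the libraries.

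The inhibitors other than Socs3 ranged from -0.58 for Socs2 to 0.76 for Cish in log2 ratio, with a median of 0.03. Pias2 was the most abundant, at 196 and 248 TPM, followed by the phosphatases Ptpn2, at 95.7 and 97.7 TPM, and Ptpn6, at 58.3 and 44.1 TPM. Socs1, another SOCS-family brake on cytokine receptors, was sparse, at 3.40 and 2.04 TPM, with a log2 ratio of 0.67. Per length, Socs3 exceeded Socs1 35.4 times in replicate 1 and 27.2 times in replicate 2.

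The other LIF and STAT3 targets differed in both directions. Of 11 such genes, 3 were more than 2-fold higher in replicate 1 and 1 more than 2-fold lower, beside 14.2% and 7.12% of all genes compared. A list of 11 genes is too short to set these counts apart from those shares. The 3 higher were Ier3 (822 and 163 counts, log2 ratio 2.21), Cebpb (236 and 53 counts, 2.01) and Fos (2838 and 877 counts, 1.57). Fos, Ier3 and Junb (log2 ratio 0.94) belong to the genes that cells switch on within minutes of many stimuli, LIF among them. Myc was more than 2-fold lower, with 128 counts in replicate 1 and 569 in replicate 2 and a log2 ratio of -2.27, although it lies on chromosome 15. Its ratio was near that of Gbx2. The naive pluripotency factors of the list were closer to equal. Tfcp2l1 had 218 and 238 TPM and a log2 ratio of -0.19, Klf4 had 86.2 and 61.5 TPM and one of 0.43, and Klf5 had one of 0.40. The survival factor Mcl1 was the most abundant target, at 786 and 579 TPM.

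**Figure D5:**
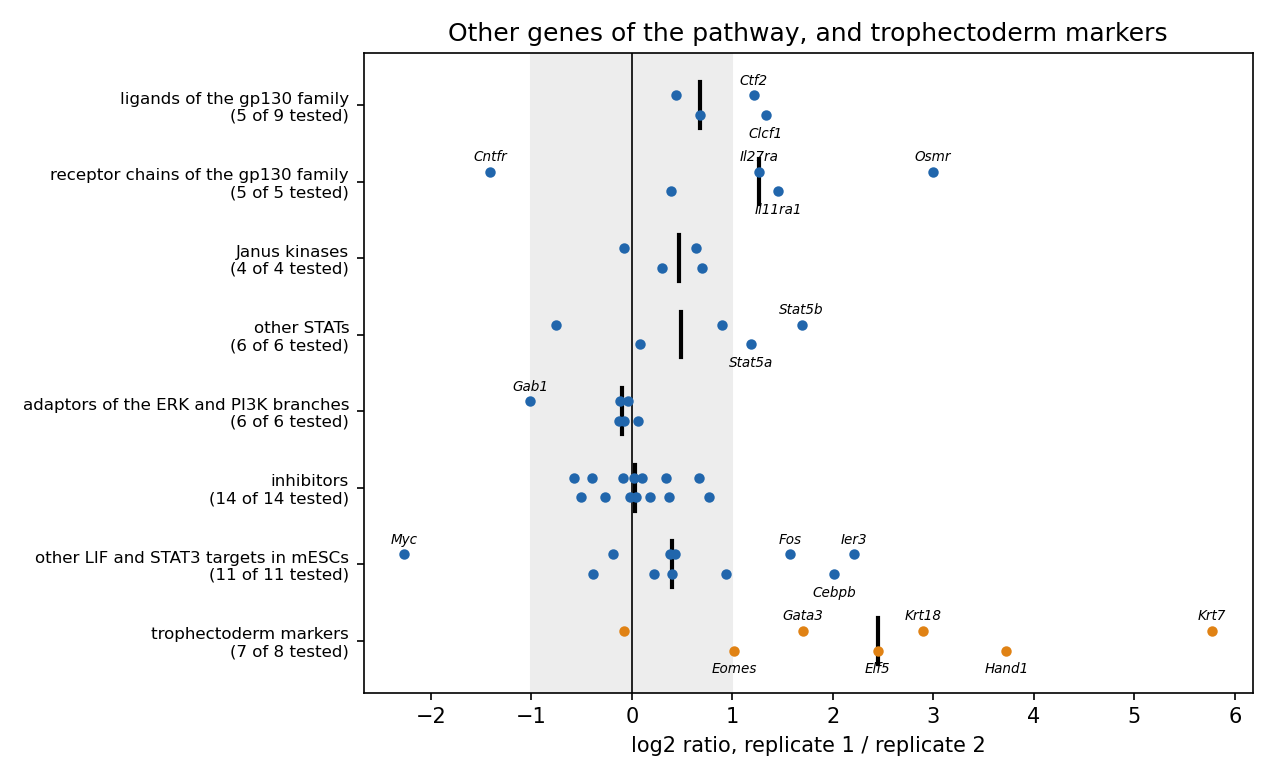
Log2 ratio of replicate 1 over replicate 2 for other genes of the pathway by list (blue) and for 7 trophectoderm markers (orange), each gene averaging 10 counts or more, with the median of the whole list as a black bar and ratios within 2-fold in grey. Plotted genes beyond 2-fold are named, with Osmr (42 and 4 counts) highest and Myc, at -2.27, lowest of the pathway genes.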

How the data were processed

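Per the labels and the methods, the authors prepared polyA libraries with a reverse-stranded protocol, trimmed the reads, aligned them with STAR (2.4.2a) to mm10 (GRCm38) and counted them per Ensembl gene with featureCounts (1.4.5-p1). The authors deposited whole-number counts per gene, without normalization, 1 library per table. How reads with several alignments were counted is not given in the sources used here.

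Symbols, positions and lengths came from GENCODE M21 (GRCm38), in which 1167 listed identifiers had no entry (0.190% and 0.187% of counts). The tables held no lengths, so TPM used the union of annotated exons, in place of the planned lengths from the tables. Libraries were scaled by TMM (edgeR 4.0.16, R 4.3.3) over all genes, and log2 ratios used a pseudocount of 1 on genes averaging 10 counts or more. Intervals are at 95% and cover counting error only (scipy 1.17.1). The labels give both libraries as Dicer_KO, so no model across genes was fitted and no p-value computed. Nothing in the labels says whether the libraries come from separate cultures.

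The steps were tested on simulated counts. The 8 genes and all lists were chosen with earlier results of these data known. The genes named are the 8, the genes of the lists beyond 2-fold, the 3 highest in TPM of each list and Dicer1; others (Stat2, Stat4, Socs1, Socs2, Cish, Junb, Klf5, Il6, Cdx2, Col3a1, Lum, Postn, Col1a1, Col1a2, Dcn, Dppa3, Sos1, Ptpn11, Pik3r1, Gbx1, Jak2) were added after their values were seen. Genes of the lists that are not reported here count in the totals and medians of their list but are neither named nor plotted. Alternatives were DESeq2 size factors (1.42.0), total and raw counts, other minimums, thresholds, lengths and pseudocounts, and each library alone.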

Additional observations from a re-analysis of the deposited data

How the results depend on the processing

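No paired analysis was possible because the only group, Dicer_KO, holds both libraries. The number of the 8 genes more than 2-fold higher in replicate 1 was 2, and 0 at a threshold of 4-fold, while Gbx2 was lower under each scaling and threshold. With a mean of at least 1000 counts, added after the values were seen, 0 of the 8 were lower, since Gbx2 falls under that minimum. Of the other pathway genes, 10 were higher and 4 lower, against 17 higher at 1.5-fold, 3 higher and 2 lower at 4-fold, and 1 higher and 1 lower with a mean of at least 1000 counts. By construction more genes pass 1.5-fold and fewer pass 4-fold or the higher minimum. The shares of all compared genes beyond 1.5-fold and beyond 4-fold are not given here. The number of other pathway genes that reached the higher minimum is not given either. Whether the counts under these alternatives, for the 8 or for the other pathway genes, differ from the background was therefore not tested. Relative to genes within 5 Mb, Lifr was at -0.33 in place of -0.66 relative to its chromosome, and the cause was not tested.

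Scaling by total counts moved the median of all genes compared from 0.02 to 0.14 and the 8 genes with it. The log2 ratio was then 1.17 for Socs3, 1.15 for Pim3 and 0.51 for Stat3. Of the values of single genes under alternatives, 61 stayed within the counting interval or the SD of the libraries and 19 moved. The 61 include every level from 1 library alone, whose outcome was fixed in advance. The mean of 2 libraries always lies within their SD of each, so taking 1 alone (Socs3 at 120 or 55.4 TPM) says nothing of stability, and log2 ratios cannot be had without both. Depth limits the genes with few counts, such as Osmr in replicate 2.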

Other observations

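Several of the 8 genes lie beside relatives in the same pathway. Stat5a and Stat5b are the nearest compared genes on one side of Stat3, and both were more than 2-fold higher in replicate 1 (log2 ratios 1.19 and 1.69), as were Naglu (2.18) and Hsd17b1 (1.13) on the other side. The 10 flanking genes of Stat3, 5 on each side, had a median of 0.70, above the 0.39 of Stat3 itself. Osm is the nearest gene to Lif, 21.1 kb away from start to start, and had a log2 ratio of 0.44 against 0.08 for Lif. Osmr is the nearest compared gene to Lifr on one side and Egflam (21 and 4 counts, log2 ratio 2.03) on the other, and both were higher in replicate 1, while the 10 flanking genes had a median of -0.15.

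Beside Gbx2, none of 10 flanking genes was more than 2-fold lower in replicate 1, and Arl4c (1.08) and Ackr3 (1.02) were higher. The median of the 10 was 0.07, though some of them, such as the overlapping D130058E05Rik (-0.64), were lower in replicate 1 within 2-fold. The median of the neighbours thus did not share the low ratio of Gbx2. Beside Pim3, Mov10l1 (1.98), Trabd (1.82), Panx2 (1.42) and AC117700.1 (2.64), all on one side, were higher, and the median of 10 was 0.95. Beside Socs3, Dnah17 (1.48), Gm11725 and Gm11738 were higher and none of 10 was lower, with a median of 0.49. Beside Pim1, Gm10045 (1.02) was higher and Gm28043 (-1.20) lower, with a median of 0.38. These genes were named by position, 5 on each side of a gene among those averaging 10 counts or more. Of all genes compared, 14.2% were more than 2-fold higher in replicate 1 and 7.12% more than 2-fold lower. Finding none lower among 10 genes therefore says little.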
